A study of Hordeum vulgare with 4 samples.

Results

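The 118 genes described here were near zero in wild-type barley leaves and clearly present in leaves of plants that overexpress HvHSFA2e. They are 118 of 63254 assembled genes in the deposited tables and 1.18% of the 10018 genes with at least 10 CPM (reads of the gene per 1000000 reads of the library) in both overexpression libraries. The members were chosen by their read counts alone: at least 10 CPM in both overexpression libraries and at most 0.5 CPM in both wild-type libraries. Their difference between genotypes is therefore the way they were found, and it is given as a description. Calls made for members by a test across all genes follow from that choice and support nothing.

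Leaf RNA of barley (Hordeum vulgare) cultivar Golden Promise was sequenced in 2 libraries of non-transformed wild-type plants and 2 libraries of transgenic plants that overexpress HvHSFA2e. The sources used here give neither the promoter of the transgene nor how many transgenic lines were pooled or sequenced, and they do not say that replicate libraries stem from different plants. All 4 libraries, wild type included, are labelled as heat-stressed (30 minutes, 42 °C), a regime the growth protocol gives for 2-week-old plants. The treatment protocol names 4 hours of 40 °C, and RNA extraction is described for plants aged 5 weeks with no mention of heat. There is no library labelled as unheated, so every difference below is between genotypes that share one, uncertain, heat label.

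Heat shock factors are transcription factors that bind short repeated motifs, the heat shock elements, in front of their target genes. In Arabidopsis and tomato, class A2 factors accumulate in heated leaves and keep chaperone genes active during long or repeated heat. A gene with almost no RNA in one genotype and abundant RNA in the other shows as an on and off difference in a count table. The files used here do not pair the assembly identifiers with gene names, sequences or positions. The functions of the 118 genes, the model that corresponds to HvHSFA2e itself and the identity of the tissue by its marker genes could therefore not be looked up, and members are described by their place in the order of abundance.

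Together the 118 genes took a sizeable share of the overexpression libraries and almost none of the wild type. They held 2.14% of 14488461 reads in overexpression replicate 1 and 3.08% of 14128916 reads in replicate 2. In the wild type they held 71 of 6030406 reads in replicate 1 (0.00117%) and 242 of 22631196 reads in replicate 2 (0.00107%). The summed share was thus alike in the wild-type libraries although one is several times deeper, and it differed visibly between the overexpression libraries. In leaf bulk RNA, more RNA per cell and more cells of a type that holds these transcripts cannot be told apart.

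**Figure D1:**
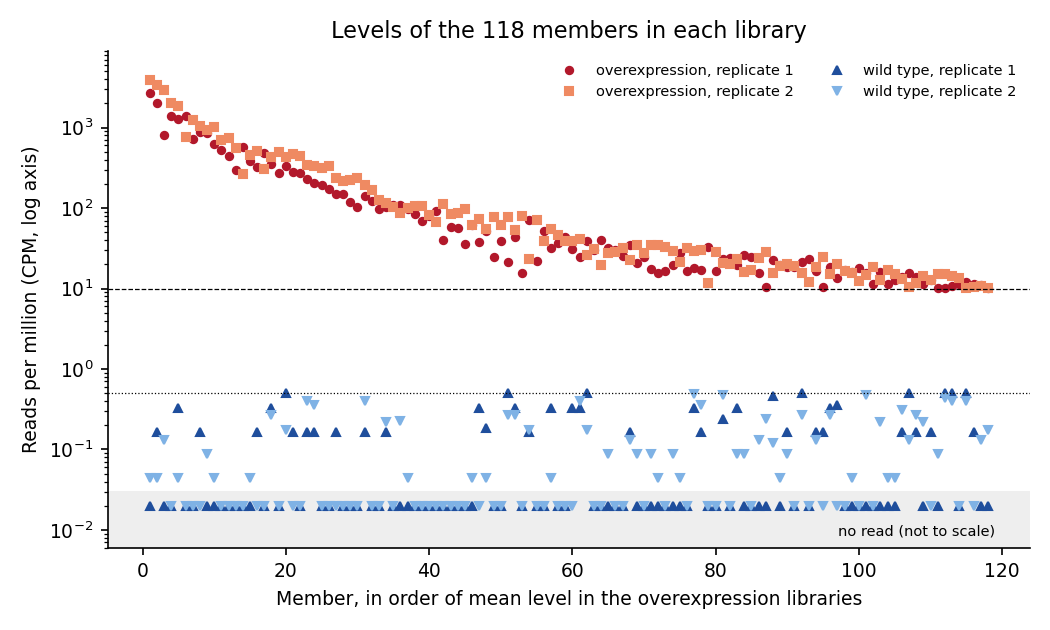
Level of each of the 118 members in the 4 libraries, in CPM on a log axis, with members ordered by their mean in the overexpression libraries. The dashed line marks 10 CPM and the dotted line 0.5 CPM, the limits of the choice, and libraries without a read are drawn in the grey band. The overexpression values fall from 3947 CPM to 10.01 CPM, while the wild-type values show no matching decline.

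Abundance within the group was very uneven. The mean over both overexpression libraries ranged from 10.1 to 3309 CPM, with a median of 37.9 CPM and quartiles of 19.3 and 169 CPM. Of the 118 genes, 35 averaged at least 100 CPM and 6 at least 1000 CPM. The 10 most abundant genes took 58.8% and 62.0% of the group's reads in the 2 overexpression libraries. Against all genes of these leaves, 5 members stood among the 100 most abundant and 24 among the 500 most abundant, with the leading member at place 32.

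The most abundant member, TRINITY_GG_22721_c0_g1, was assembled as 6 isoforms and stands alone in its partition, the stretch of overlapping genome-aligned reads from which the assembler builds its models. Wild-type replicate 1 held none of its reads and replicate 2 held 1 (0.0442 CPM), against 2670 and 3947 CPM in the overexpression libraries, a mean of 3309 ± 903 CPM (SD, n = 2). Pooled over replicates and scaled to library totals, the overexpression level was 94599 times the wild-type level, with an exact 95% counting interval of 16978 to 3736499. The width of that interval comes from the single wild-type read, and it covers counting error only.

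The second most abundant member had 1 read in each wild-type library and 2035 and 3383 CPM in the overexpression libraries. The gene at place 3 had 0 and 3 wild-type reads and 801 and 2894 CPM in the overexpression libraries. These leading genes share a higher value in replicate 2, and in the gene at place 3 the gap between the replicates was 3.61-fold. The fourth had 1404 and 2031 CPM in the overexpression libraries and no wild-type read. Set against an assumed floor of 3 reads in the pooled wild type (0.105 CPM), its pooled overexpression level was 16370-fold higher. The exact 95% counting interval starts lower, at 13313-fold. The fifth, a model with 1 isoform, had 2 and 1 wild-type reads and 1277 and 1840 CPM.

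Places 6 to 10 lay between 815 and 1067 CPM on average. The sixth had 1379 and 756 CPM in the overexpression libraries and was the one gene of the leading 10 that was lower in replicate 2. The seventh had 714 and 1245 CPM, and neither it nor the sixth had a wild-type read. The eighth had 869 and 1044 CPM, with 1 read in wild-type replicate 1. Their wild-type values thus did not follow their abundance.

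The ninth, TRINITY_GG_24419_c0_g1, had the most isoforms of any member, 11. It had 0 and 2 wild-type reads against 845 and 937 CPM in the overexpression libraries, a mean of 891 ± 64.5 CPM (SD, n = 2), and its overexpression libraries differed little. The pooled overexpression level was 12761 times that of the wild type (exact 95% counting interval 3532 to 105379). The tenth had 617 and 1012 CPM, with 0 and 1 wild-type reads.

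At the other end, the 3 least abundant members averaged just above the limit. The lowest had 10.1 and 10.1 CPM in the overexpression libraries and 0 and 4 wild-type reads. The next had 11.1 and 10.8 CPM with 0 and 3 wild-type reads, and the one before it 11.5 and 10.5 CPM with 1 and 0 reads. These genes are separated from the wild type by far fewer reads than the leading ones.

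The order changes when length is taken into account. On the deposited expression signal, a length-normalized TPM value with a further library factor, 6 of the 10 leading members by CPM were also among the leading 10. The second member by CPM came first on this scale, with a signal of 2261 and 4093 in the overexpression libraries. TRINITY_GG_22721_c0_g1 came ninth, with 664 and 1067. Its model is long, with an effective length 2.81 times that of the median isoform, against 0.630 times for the second member.

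The limits of the choice cut through a continuous series of genes. The members nearest to the limit of 10 CPM had 10.01 CPM in overexpression replicate 1 and 10.05 CPM in replicate 2 as their lower value. The nearest genes left out had 9.94 and 9.84 CPM. At the wild-type limit, 3 reads in the shallower replicate 1 equal 0.497 CPM, the highest value a member could have there, and the nearest genes left out had 12 reads, or 0.530 CPM, in replicate 2. A further 82 genes met the limits except in 1 overexpression library, and 61 except in 1 wild-type library.

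The group had few counterparts in the other direction. The reversed limits, at least 10 CPM in both wild-type libraries and at most 0.5 CPM in both overexpression libraries, held for 3 genes. These averaged 29.9, 19.7 and 12.1 CPM in the wild type. The minimum asked of the expressed genotype was then varied, with the near-zero limit kept at 0.5 CPM. At 1 CPM in place of 10 CPM, 1104 genes were near zero in the wild type and 219 near zero in the overexpression plants. At 100 CPM the numbers were 34 and 0, so at that level no gene was found in the reverse direction.

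Residual wild-type reads were spread over many members. In both wild-type libraries 50 of the 118 genes had no read, after rounding of the estimated counts. Of the other 68, 31 had reads in both wild-type libraries, 10 in replicate 1 alone and 27 in the deeper replicate 2 alone. No member had more than 3 reads in replicate 1 or 11 in replicate 2, which the limit of 0.5 CPM sets. For the 50 unread genes the assumed floor of 3 reads puts the pooled fold at 119 for the lowest and at 654 for the median gene.

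The residual reads did not grow with abundance in the overexpression plants. Among the 35 members at 100 CPM or more, 17 had a wild-type read, with a median of 0 reads over both libraries. Among the 54 members under 30 CPM, 39 had one, with a median of 2 reads. Summed over the 35 abundant genes, the wild type held 2.65 and 2.25 CPM and the overexpression libraries 19048 and 27834 CPM. Over the 54 low genes the sums were 6.04 and 6.75 CPM in the wild type and 964 and 1073 CPM in the overexpression libraries. The cap on wild-type values is the same for all members, whatever their level. Several members tied at the highest possible value in wild-type replicate 1, 3 reads. Among them, the gene at place 62 had 4 reads in wild-type replicate 2 and 38.5 and 25.9 CPM in the overexpression libraries, and the gene at place 92 had 6 reads and 21.1 and 15.8 CPM.

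**Figure D2:**
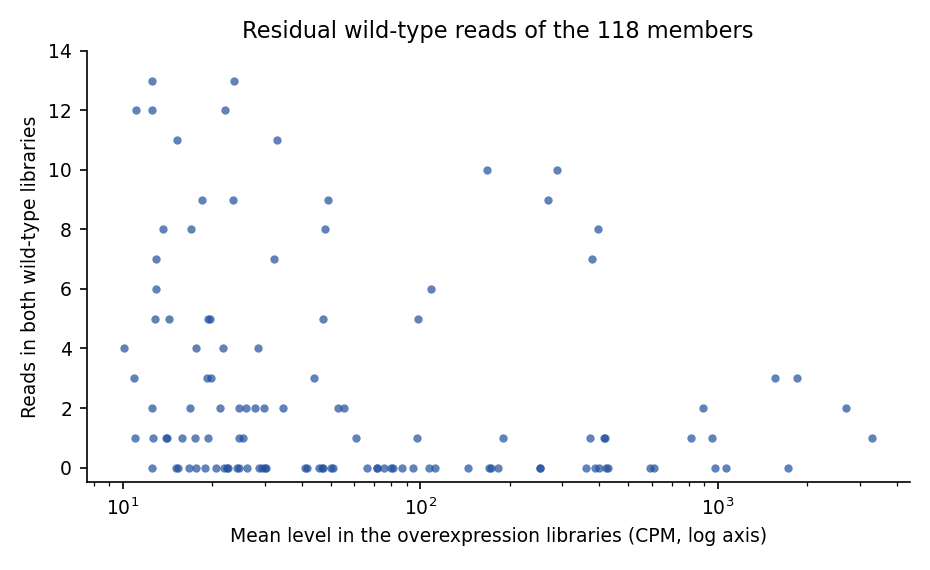
Reads in both wild-type libraries together (vertical axis, linear) against the mean level in the overexpression libraries (horizontal axis, CPM, log), 1 point for each of the 118 members. The most abundant members, above 1000 CPM, had 0 to 3 wild-type reads, and the highest value, 13 reads, belongs to members under 30 CPM.

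In a test across all genes, edgeR's quasi-likelihood test with Benjamini-Hochberg adjustment, 18.6% of 25095 genes were called higher in the overexpression plants and 16.1% lower (adjusted p under 0.05). On plain library totals, the scale of the CPM values, the balance was different, with 25.2% called higher and 10.2% lower. Over all genes the median moved from 0.06 to 0.32 on the log2 scale between these scalings. All 118 members were among the genes called higher, and since they were chosen on the same counts nothing is read from that.

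The members varied more between the overexpression libraries than other genes did. Of the 118, 80 were higher in overexpression replicate 2 than in replicate 1, and the median log2 ratio of replicate 2 to replicate 1 was 0.35 (quartiles -0.09 and 0.71). Among the 9900 other genes with 10 CPM or more in each overexpression library the median log2 ratio was -0.09 (quartiles -0.25 and 0.08). A gap of at least 2-fold between the overexpression libraries occurred in 15 members (12.7%) and in 198 of the other genes (2%). With 1 library on each side of this ratio there is no test of it.

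**Figure D3:**
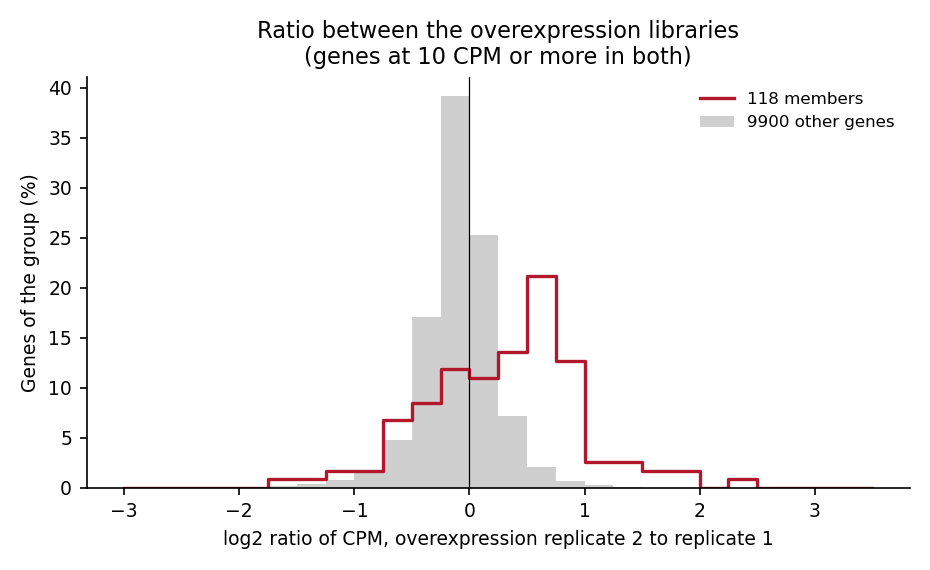
Distribution of the log2 ratio of CPM in overexpression replicate 2 to replicate 1, as the percentage of genes in bins of 0.25, for the 118 members (red line) and the 9900 other genes with 10 CPM or more in each overexpression library (grey bars). The grey bars peak just under 0, while the members have their highest bin, 21.2% of them, between 0.5 and 0.75.

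The tendency towards replicate 2 grew with abundance, while gaps of at least 2-fold were most frequent at the middle level. At 100 CPM or more, 31 of 35 members were higher in replicate 2, with a median log2 ratio of 0.56, or 1.48-fold. Among 1421 other genes of that level 47.9% were higher in replicate 2, with a median log2 ratio of -0.02. Scaled by the trimmed mean of M-values (TMM), the shares at this level were 91.4% of members and 69.8% of the others, with medians of 0.69 and 0.11. From 30 to 100 CPM the median log2 ratio was 0.35 in 29 members and -0.10 in the other genes. Under 30 CPM it was 0.01 in 54 members and -0.10 in the other genes, so the median of the low members lay closer to the rest. Their spread stayed wider: a log2 ratio of at least 0.5 occurred in 17 of these members (31.5%) and in 2.36% of the others. A gap of at least 2-fold in either direction occurred in 8.57% of members at 100 CPM or more, 27.6% from 30 to 100 CPM and 7.41% under 30 CPM. The last share is limited by the choice. Both libraries had to reach 10 CPM, so a member with a mean close to 10 CPM could not show such a gap. Over all levels and on TMM-scaled library sizes, 91 of 118 members were higher in replicate 2 and the medians became 0.48 in members and 0.04 in the others, a common shift that turns the sign of the others' median.

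The largest gaps between the overexpression libraries were found at different levels. The member at place 53 had 15.4 and 79.1 CPM in the overexpression libraries and no wild-type read. The member at place 51 had 21.2 and 77.1 CPM, with 3 and 6 wild-type reads. Next by this measure came the member at place 3, described above. All of these 3 were higher in replicate 2.

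Members that came from one partition mostly had similar ratios. The 118 genes lay in 104 partitions, of which 13 held 2 or 3 members, 27 members in all. Within these 13 partitions the log2 ratio of replicate 2 to replicate 1 differed by a median of 0.14 between members. Over all 118 members its quartiles were -0.09 and 0.71. In 9 of the 13 it had the same sign in all members of the partition. Since 80 of the 118 members were higher in replicate 2, a shared sign is common without a shared partition, and nothing is read from that count. One partition held 3 members and no other gene. Its members, at places 6, 14 and 17, had no wild-type read.

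These 3 genes were higher in replicate 1, against the tendency of the abundant members. Their values in overexpression replicates 1 and 2 were 1379 and 756 CPM at place 6, 575 and 266 CPM at place 14, and 488 and 310 CPM at place 17. The corresponding log2 ratios lay between -1.11 and -0.65. Genes of one partition may be pieces of 1 locus or separate neighbours, and which of these holds was not tested, so 118 is a number of models and may count a locus more than once.

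The wild-type level was also summed over all models of a partition. In 87 of the 104 partitions this sum was still at most 0.5 CPM in both libraries, and in 17 it was not. In 61 of the 87 the member was the single gene, so the sum was its own value and the choice fixed the outcome. In 36 of the 104 partitions the member or members had neighbours that are no members. In 5 partitions the wild-type sum reached 10 CPM in both libraries, so that a member near zero lay beside a model with a measurable wild-type level.

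Neighbours are the genes of these partitions that did not meet the limits themselves, and their number is 79. Of these, 36 passed the filter on low counts, which asks for about 0.699 CPM in at least 2 libraries. Only 10 of the 36 reached that level in both wild-type libraries. Of these 10, 7 were called higher and 0 lower (edgeR adjusted p under 0.05), against 13.8% higher and 19.6% lower among the 20629 genes that met the same condition, which was set after the values were seen. Some of the 10 share a partition and are not independent.

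The other 26 neighbours needed the overexpression libraries to be tested at all. Of them, 24 (92.3%) were called higher and 0 lower. Among all 4466 genes of that kind, 1823 (40.8%) were called higher, so most were not called, and none was called lower. A call of lower was thus hardly open to these neighbours. The total of 31 called higher out of 36 (32 without adjustment of p, 30 by DESeq2) is therefore a description of the neighbours and is not set against the share over all genes. Raised neighbours were not particular to the members. Beside other genes called higher, 872 of 1584 tested neighbours (55.1%) were called higher. Beside other genes called higher at least 64-fold, 100 of 139 (71.9%) were. Neither count asks for a level in the wild type. In both, a raised gene could count as the neighbour of another, and some neighbours of members are among those counted.

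**Figure D4:**
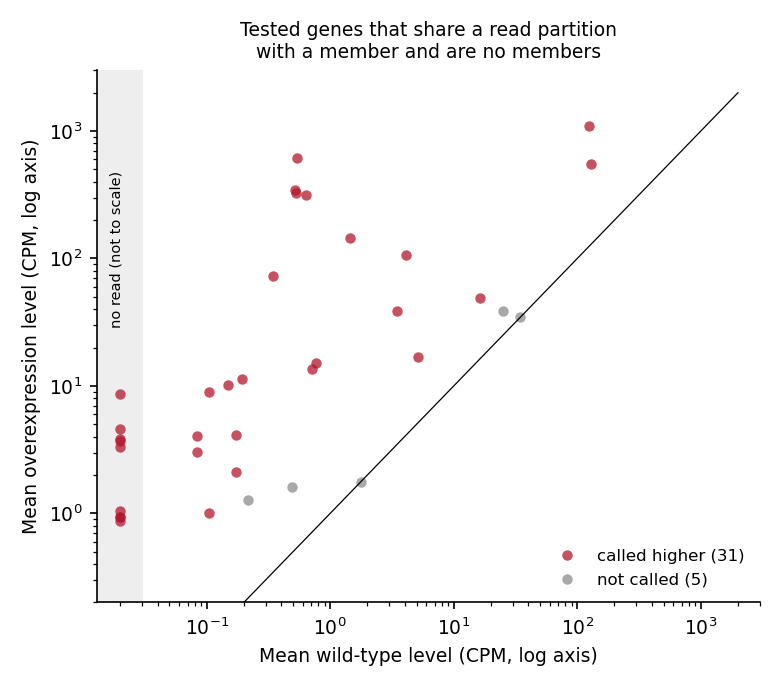
Mean level in the overexpression libraries against mean level in the wild type, both in CPM on log axes, for the 36 tested genes that share a partition with a member and are no members. Red points were called higher, grey points were not called, the line marks equal levels and the grey band holds genes without a wild-type read. The red points lie above the line, and 3 of the 5 grey points lie close to it.

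Single neighbours show what lay beside a near-zero model. The most abundant neighbour had 113 and 134 CPM in the wild type and 774 and 1400 CPM in the overexpression libraries, which is 2.90 ± 0.34 (SE) on the log2 scale (edgeR adjusted p = 0.00152). The 2 members of its partition had 0 and 0, and 0 and 1, wild-type reads. Another neighbour had 132 and 127 CPM in the wild type and 519 and 574 CPM in the overexpression libraries, which is 1.83 ± 0.17 (SE) on the log2 scale (edgeR adjusted p = 0.000698). The member beside it had 0 and 5 wild-type reads. In both partitions a model expressed in the wild type was thus called higher beside a model near zero there.

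Another such neighbour, beside the lowest member, had 15.9 and 16.9 CPM in the wild type and 49.7 and 47.9 CPM in the overexpression libraries (1.31 ± 0.16 SE on the log2 scale, edgeR adjusted p = 0.0019). The remaining neighbours with 10 CPM or more in both wild-type libraries were not called. One of them had 25.2 and 25.1 CPM in the wild type and 43.8 and 34.2 CPM in the overexpression libraries (0.37 ± 0.17 SE on the log2 scale, edgeR adjusted p = 0.128). The other had 39.5 and 29.3 CPM in the wild type and 37.0 and 32.3 CPM in the overexpression libraries (-0.23 ± 0.19 SE on the log2 scale, edgeR adjusted p = 0.370). In the latter the genotypes overlapped, although the member beside it is near zero in the wild type.

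Several neighbours missed membership by little. One had 0.497 and 0.574 CPM in the wild type and 538 and 682 CPM in the overexpression libraries, more than the 2 members beside it. In another partition, 2 neighbours averaged 343 and 325 CPM in the overexpression libraries with 0.519 and 0.530 CPM in the wild type, beside a member at 232 and 344 CPM.

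The assembled models of the members were shorter and more often had a single isoform. The comparison is with the other genes at 10 CPM or more in each overexpression library. Their median effective length, taken relative to the median isoform of the library, was 0.607 (quartiles 0.401 and 0.987) against 1.16 (0.744 and 1.67) in the 9900 others. The gap in length held at each level: 0.640 against 1.21 at 100 CPM or more, 0.590 against 1.22 from 30 to 100 CPM, and 0.536 against 1.11 under 30 CPM. A single isoform was assembled for 68 members (57.6%) and for 42.5% of the others, and 61 members (51.7%) against 27.5% of the others were alone in their partition. At 100 CPM or more the single-isoform shares were closer, 34.3% of members and 27.4% of the others, with a median of 2 isoforms in both. These are features of the assembly, given without a test.

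Members with several isoforms were the more abundant ones, which was not particular to the members. Of the other genes, 47.0% under 30 CPM, 42.3% from 30 to 100 CPM and 27.4% at 100 CPM or more had 1 isoform. The 50 members with at least 2 isoforms had a median of 76.4 CPM in the overexpression libraries, and 23 of them averaged at least 100 CPM. The 68 members with 1 isoform had a median of 27.3 CPM, and 12 of them averaged at least 100 CPM. On the expression signal per length the medians were 78.3 and 62.9, a much smaller difference.

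The division of reads among isoforms was not used in choosing the members. In 48 members at least 2 isoforms had reads, and in 42 of these the same isoform led in both overexpression libraries (87.5%), against 94.97% of 5568 other genes. Where at least 2 isoforms held 10% of the reads, the lead was the same in 18 of 24 members (75%) and in 89.1% of 2578 other genes. The leading isoform held a median of 84.4% of a member's reads. The share of reads that would have to move between isoforms to turn one library's division into the other's was 5.15% at the median, and 3.67% in the other genes. These shares rest on RSEM's estimate of which isoform a shared read came from, and the tables give no error for it.

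**Figure D5:**
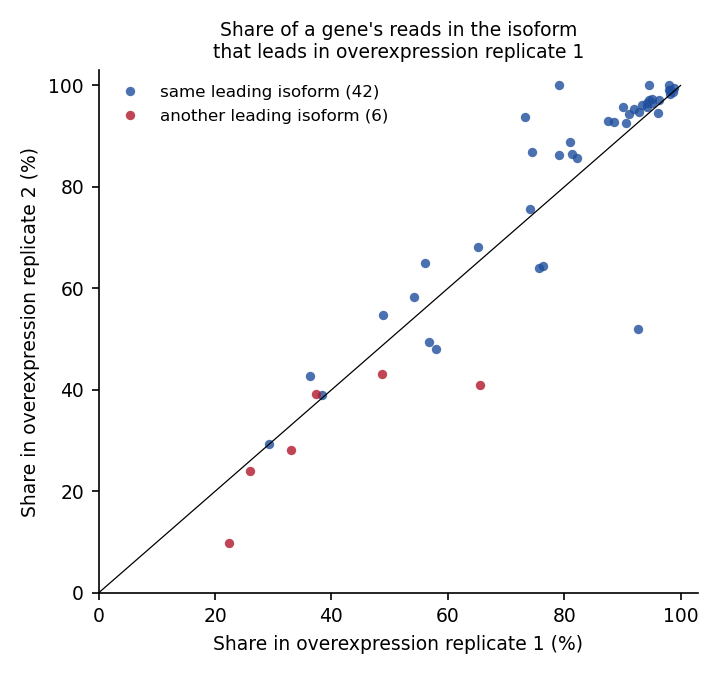
For the 48 members with reads in at least 2 isoforms, the share of the gene's reads in the isoform that led in overexpression replicate 1, in percent, in that library (horizontal axis) and in overexpression replicate 2 (vertical axis). Most points lie near the line of equal shares, and the red points are the 6 members in which another isoform led in replicate 2.

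Abundant members were of different kinds in this respect. In TRINITY_GG_22721_c0_g1 one isoform held 93.4% of the reads in overexpression replicate 1 and 96.2% in replicate 2. In the second member the leading isoform of 8 held 29.2% and 29.4%. In TRINITY_GG_24419_c0_g1 the leading isoform held 38.5% and 38.9% and the next 22.1% and 17.6%, and the 2 wild-type reads were assigned to the sixth. The share of reads that moved was 0.802% in the second member and 9.75% in TRINITY_GG_24419_c0_g1, above the median of the members. In the gene at place 18, with 10 isoforms, another isoform led in replicate 2 and 21.7% of the reads moved. Members with many isoforms thus ranged from near-identical to clearly different divisions.

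The 3-member partition held another large shift. In its member at place 17 the leading isoform fell from 92.6% of the reads in overexpression replicate 1 to 52.0% in replicate 2. The largest shift, 45.2% of the reads, was that of a member with 10 isoforms at place 112, near the lower limit. Reads of 37 members were not whole numbers when summed per gene, which happens where reads are divided with another gene model. The other 81 members (68.6%) and 80.5% of the other genes had whole sums in both overexpression libraries, within 0.01 reads. For these 37 the level depends on how reads were divided between similar genes.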

How the data were processed

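Per the submitters' processing notes, STAR, Bowtie2, RSEM and DESeq2 were used; the notes give no version or role, and the genome build is not given in the sources used here. Features are named as models of a genome-guided Trinity transcript assembly. The isoform table deposited by the authors holds RSEM expected counts. The authors' expression tables hold a signal, which their names describe as TMM-scaled expression and which behaves as TPM times a library factor. The deposited gene count table is also a normalized signal: its log2 ratio to the gene expression signal had an SD of at most 9.81e-05 over 16260 genes. It was therefore used only as an alternative.

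Expected counts were summed per gene. CPM used unscaled library totals. For tests, sums were rounded, filtered (edgeR 4.0.16 filterByExpr, minimum count 10, minimum total 15), scaled with TMM and tested across all genes in R 4.3.3 with the quasi-likelihood test of edgeR, after a check on simulated data. Standard errors were taken from the fold change and its F statistic. For single values, 2 against 2 libraries allow no exact permutation p below 0.333. The p-values reflect the spread among these 4 libraries alone, whether biological or technical. Library totals ran from 6030406 to 22631196 reads, and the shallowest library, in the wild type, resolves 0.5 CPM as 3 reads. Effective length is expected count divided by expression signal, relative to the median isoform with at least 10 reads in the same library, and averaged over the overexpression libraries.

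Members, lists and alternatives were chosen with earlier results of these data known. Identifiers were printed by rule for the most abundant member and the one with most isoforms. Other members were taken by rule: the 10 most and 3 least abundant, the 3 with the largest gap between overexpression libraries, the 3 highest in the wild type, the partition with most members and the genes at the limits. Alternatives were DESeq2 (1.42.0), limma (3.58.1), other scalings, filters and limits, a replicate block and leaving out each library.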

Additional observations from a re-analysis of the deposited data

How the results depend on the processing

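Members were called higher in 110 to 118 of 118 cases over 12 alternatives (110 with the deposited gene table), and both printed identifiers stayed called; they were chosen on the same counts, so this is no sign of stability. The number of genes that meet the limits depended on them: 207 at 5 CPM, 70 at 20 CPM, 50 with no wild-type read allowed and 185 on the expression signal per length, of which 86 are members (46.5% of the 185 and 72.9% of the 118). It was 143 to 173 with a library left out, because fewer libraries had to meet a limit, and 101 on TMM-scaled CPM. Neighbours called higher numbered 31 of 36 (86.1%), but 7 of 10 where both wild-type libraries had to reach the filter level, an alternative chosen after seeing the data. They numbered 20 of 22 under a minimum count of 50, 41 of 70 (58.6%) with no filter and 29 of 52 (55.8%) with the deposited gene table. The share called higher over all genes tested moved too, from 18.6% to 22.5%, 9.54% and 4.15% in these settings. Neighbours called higher were also counted with each library left out. With a library left out they were 23 to 28, namely 27 of 47 (57.4%) without wild-type replicate 1, 23 of 47 (48.9%) without wild-type replicate 2, and 28 of 35 and 28 of 34 without overexpression replicates 1 and 2. None was called lower in the 12 alternatives planned. A common leading isoform was found in 18 of 24 members (75%) once 2 isoforms had to hold 10% of the reads, against 89.1% of other genes. Over all genes, 1531 were called higher with the deposited gene table, where the cause was not tested, and 1494 to 4204 with a library left out (2504 without wild-type replicate 1, 1494 without replicate 2). Leaving out a library assumes that the lone library varies like the other genotype's. Across genes, libraries with the same number deviated from their group means with a correlation of 0.0024, so the numbers are not taken as pairs; with a replicate block 118 members and 31 neighbours were called higher. The scaling of the ratio between the overexpression libraries was tried after seeing the data.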
